A study of Mus musculus with 33 samples.

Results

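The probes described here are 169 array probes whose signal was well above noise on every array and lower in cells given lipopolysaccharide (LPS) than in cells without it. They were chosen from 33012 gene probes in the mouse macrophage-like line RAW264.7. Of these, 9515 had a signal over noise of at least 3 and no disqualifying quality flag on all 33 arrays, and 9385 of those carried an identifier that is not a RefSeq one. The 169 members (1.8% of 9385) are those whose mean log2 value over the 30 LPS-treated arrays lay at least 1.25 below the mean over the 3 vehicle arrays in the authors' deposited value table. Because that difference chose the members, every value of LPS-treated against vehicle cells is a description and carries no test. A further 3 probes with a RefSeq identifier passed the same value and are outside the rule, and 438 of the 9385 lay at least 1.25 higher.

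The study had 11 groups of 3 arrays, one RNA sample per array, which its design text calls biological replicates. Vehicle cells received 0.1% DMSO and no LPS, and no DMSO content is recorded for the other groups. Every other group received LPS at 1 µg/ml, and 9 of these 10 groups also received a compound, namely albiflorin, paeoniflorin or paeonol, each at doses of 1, 10 and 100 µg/ml. All cells were taken at 6 h. Groups are named below by compound and dose in µg/ml, so that paeonol 100 is LPS with paeonol at 100 µg/ml. RAW264.7 is a single transformed line, and no gene was deleted or added in any group.

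LPS is a component of the outer membrane of Gram-negative bacteria. Macrophages sense it through the surface receptor TLR4, which activates NF-κB and interferon signalling and raises cytokines and chemokines, while other transcripts fall, among them genes of proliferation, metabolism and surface receptors in many macrophage studies. Albiflorin and paeoniflorin are isomeric monoterpene glycosides of peony root, and paeonol is a small phenolic ketone of peony root bark.

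None of the 169 members has a gene name here. Of their identifiers, 154 are Celera gene numbers (mCG), 10 are GenBank accessions starting with AK and 5 start with BC, and 0 of 169 matched an entry of the RefSeq gene table for mouse (GRCm38.p6). Members are therefore called by probe number and identifier, and no function or sequence is given for them. For the same reason the lists of cell cycle, sterol synthesis, receptor, signalling and histone genes had 0 members among the 169. Of 9 macrophage markers 1 was named, Cebpb, a transcription factor of myeloid cells, and its 2 probes were detected on 33 of 33 arrays. Of 2 erythroid markers 1 was named, Hba-a1, with 0 probes detected on all 33 arrays. The label of the line could not be checked further, since no fibroblast, T cell or B cell marker had a named probe.

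The raw median signal per array was 335.9 to 1439.7. Between 38.2% and 49.7% of gene probes passed detection, the fewest on paeoniflorin 10 replicate 1. Apart from the groups, the arrays fell into sets that sharply split some probes outside the 169. Class A held 15 arrays, class B 10 and class C 8, with 17, 15 and 5 probes that separated each class from all other arrays by a wide gap. Class A had 1 vehicle and 1 LPS-alone array and class B had 2 of each, whereas class C had neither and held 6 of the 9 paeonol arrays. A second set of 8 arrays crossed these classes and was marked by 6 probes, with 8 more that marked 7 of the 8. It held vehicle replicate 2, LPS replicate 2, albiflorin 1 replicates 1 and 2, and replicate 2 of albiflorin 10, albiflorin 100, paeoniflorin 1 and paeonol 10. What the sets are was not tested, and the file headers do not name them.

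The difference that chose the members ran from -2.74 to -1.26 log2 units with a median of -1.46, a 2.76-fold lower signal. It was -2 or lower for 20 members and -1.5 or lower for 82. Just inside the threshold were probe 473041 (mCG6704.2) at -1.260 and probe 617375 (mCG17449.2) at -1.257, and just outside were probe 912047 (mCG21014.2) at -1.248 and probe 802374 (mCG134300.1) at -1.241. The values continue across the threshold without a gap. In these bulk samples, fewer cells with a transcript and less of it per cell cannot be told apart.

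On quantile normalized signals the median of the 169 probes was 14.80, 14.78 and 14.85 log2 units on the 3 vehicle arrays. It was 13.18, 13.02 and 13.13 with LPS alone, and between 12.58 and 13.47 on the 30 LPS-treated arrays. No treated array came near the vehicle arrays. The median of all 9515 detected probes was between 14.57 and 14.65 on every array, which the quantile normalization largely fixes. Relative to it, the members moved from slightly above the middle of the detected probes to well below it. Against vehicle, 161 members (95.3%) were lower on all 30 treated arrays than on any vehicle array, beside 9.07% of all detected probes. The rule largely fixes that count. All 169 lay below the vehicle mean in each of the 10 treated groups, and 145 lay at least 2-fold below it in each, beside 1.95% of detected probes.

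**Figure D1:**
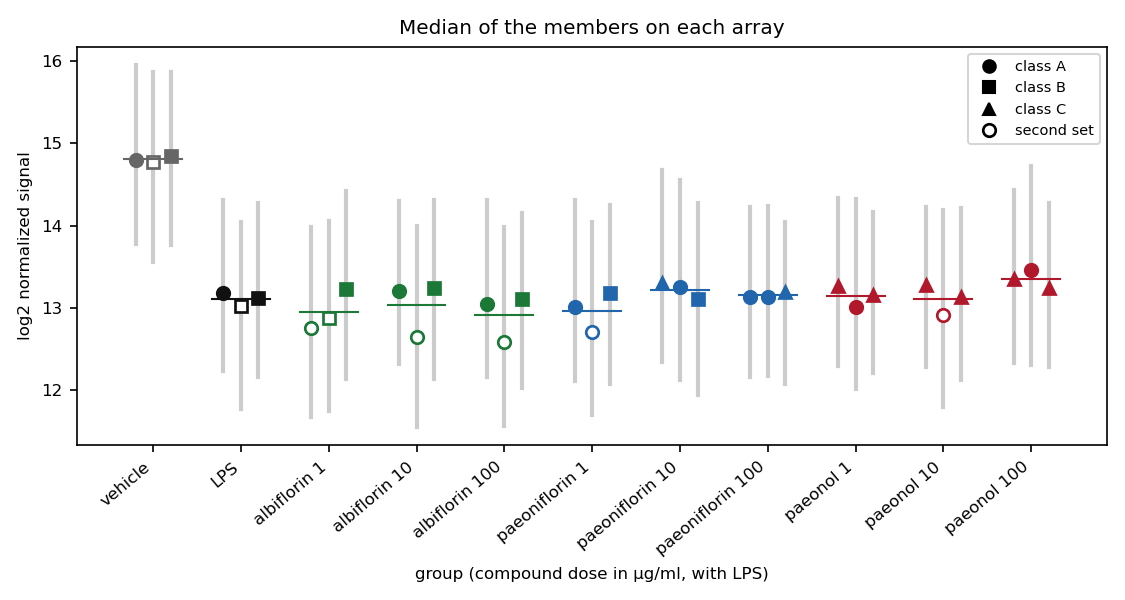
Median log2 normalized signal of the 169 probes on each of the 33 arrays (y axis) by group (x axis). Grey bars run from the lower to the upper quartile of the probes, horizontal lines are group means of 3 arrays, symbols mark array classes A, B and C and open symbols the second set. Vehicle arrays sit at 14.78 to 14.85, treated arrays at 12.58 to 13.47, and in each treated group that has open symbols they are the lowest.

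The largest fall was that of probe 449813 (mCG22492.3), 6.67-fold by the rule. Its signal was 15.13, 14.65 and 15.02 log2 units in vehicle cells and 12.26, 11.58 and 12.04 with LPS alone. With paeonol 100 it was 13.10, 12.90 and 12.50, above all LPS-alone arrays and below all vehicle arrays. The next was probe 715000 (mCG48962), at 17.68, 17.48 and 17.58 in vehicle cells and 15.29, 14.96 and 14.98 with LPS alone. Its treated group means lay between 14.78 and 15.27, so that no compound group stood apart. Probe 527450 (mCG122064.1) read 14.02, 13.88 and 13.62 in vehicle cells and 11.81, 11.34 and 11.31 with LPS alone. Its 10 treated group means spanned only 11.31 to 11.56. Probe 676851 (mCG16519.2), with the same rule value of -2.34, was less even. It read 14.65, 13.28 and 14.20 in vehicle cells and 11.65, 11.41 and 12 with LPS alone, and between 10.41 and 12.26 over all treated arrays, still with no overlap.

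The members differed widely in level. Vehicle means ran from 11.89 to 20.43 log2 units with a median of 14.83, and 92 of 169 lay above the median of all detected probes, 14.64. The brightest, probe 893075 (mCG122950.1), read 20.47, 20.45 and 20.37 in vehicle cells and 18.57, 18.35 and 18.57 with LPS alone. The dimmest, probe 329956 (mCG9596.2), read 11.94, 11.48 and 12.26 in vehicle cells and 9.79, 10.36 and 10.26 with LPS alone. Both fell clear of their vehicle values. With the members cut into 3 parts by vehicle level, the median rule value was -1.45 in the 57 dimmest, -1.49 in the 56 middle and -1.59 in the 56 brightest probes, values that the threshold bounds on one side. The SD between vehicle arrays was slightly larger in the dimmest part, with a median of 0.293 against 0.212 in the brightest.

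Another probe for the same Celera number existed for 12 members, in 13 pairs, and no pair had both probes in the list. The other probe was at least 2-fold lower in the same contrast in 5 pairs, lower by less in 6 and slightly above 0 in 2. For probe 449813 the other probe of mCG22492.3, number 630797, had a value of -2.87 and was detected on 17 arrays, too few for the rule. For probe 309811 (mCG5146.3), at -1.92, the other probe was at -2.03 with detection on 31 arrays. In 6 pairs the other probe was detected on all 33 arrays, and 2 of these 6 were at least 2-fold lower, among them the partner of probe 743631 (mCG115091.1), at -1.20 beside -1.27. Others of these pairs disagreed. Probe 830012 (mCG1040532.2) had -1.82 and its partner -0.03, and probe 653014 (mCG12939.2) had -1.35 and its partners -0.35 and -0.43. Probes of one identifier may read different transcripts, so that a fall of a member is a fall of what that probe reads. Which transcript that is was not tested.

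A few members split by array class. Among the treated arrays, every class B array lay above all others for 2 members, beside 0.967% of detected probes, and every class A array lay below all others for 1 member, probe 630135 (mCG128920.1), beside 0.126%. For probe 353281 (AK078039.1) the class B treated arrays read 13.55 to 14.50 log2 units and the others 11.82 to 13.49, against 13.78, 15.33 and 15.34 in vehicle cells. The other, probe 618976 (mCG68007.2), had the largest SD over the 10 treated group means, 0.658. It read 12.02, 13.52 and 14.07 in vehicle cells and 11.60, 13.48 and 13.80 with LPS alone. The high values are those of the class B arrays, with and without LPS, and vehicle and LPS-alone values overlap. Within class B its treated arrays differed from the vehicle arrays by -0.08 log2 units, within class A by -0.97, against -1.28 by the rule. The class C arrays, which include most paeonol arrays and no vehicle array, read low. At the other end, probe 924172 (mCG13470.2) had the smallest SD over treated group means, 0.086, with means between 11.45 and 11.72 against 13.28 ± 0.346 (SD, n = 3) in vehicle cells.

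For the rest of the list the fall was also seen within classes A and B. The rule used the arrays of both classes and so largely fixes the counts that follow. Class C has no vehicle array and could not be compared. Within class A (1 vehicle and 14 treated arrays) the median member difference was -1.74, and 164 of 169 were at least 2-fold lower, beside 6.81% of detected probes. Within class B (2 vehicle and 8 treated arrays) it was -1.58, and 167 were at least 2-fold lower, beside 4.56%. In both classes 164 members were at least 2-fold lower. Besides probe 618976, the exceptions were probe 642015 (mCG2943.2) at -0.55 and -0.99, probe 353281 (AK078039.1) at -0.99 and -1.19, probe 473041 at -0.94 and -1.60, and probe 640536 (mCG6194.2) at -0.86 and -1.80 in classes A and B. All 5 lay below vehicle in both classes.

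The second set of arrays moved with the members' level. Its 7 LPS-treated arrays had member medians of 12.58 to 13.02 log2 units, and the other 23 had 13.02 to 13.47. Of the 7, 6 lay below every one of the 23. On average over arrays 145 of 169 members (85.8%) were lower in the 7 than in the 23, with a median difference of -0.39, beside 57.6% and -0.06 for all detected probes. All 7 lay below all 23 for 26 members (15.4%), beside 4.03% of detected probes. They lay above for 1 member, probe 373273 (mCG12443.2), at 14.29 to 14.69 against 12.78 to 14.06, beside 2.34%. Vehicle replicate 2, also in the set, had a median of 14.77 and so lay with the other vehicle arrays. Since the set holds an LPS-alone array and the 4 albiflorin arrays with the lowest medians, the median differences between compounds and LPS and between compounds are given below with and without it. Its part in the calls is given where a fit with the set as a term changed them.

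**Figure D2:**
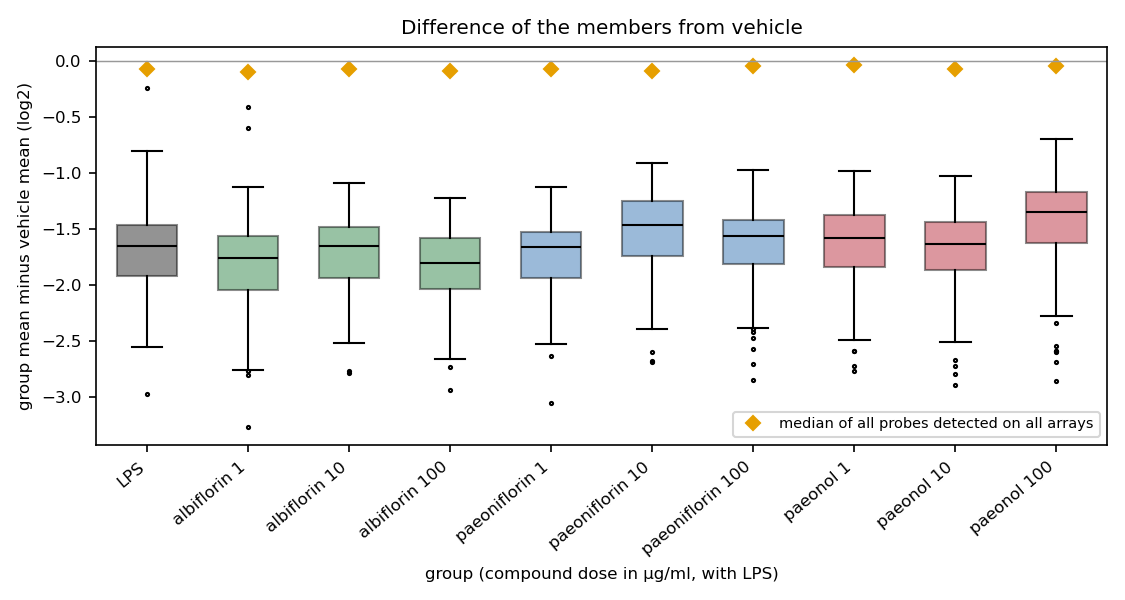
Difference of each of the 169 probes from its vehicle mean (y axis, log2) in the 10 LPS-treated groups (x axis). Boxes run from the lower to the upper quartile with the median line, whiskers reach 1.5 times that span and dots lie beyond it. Orange diamonds are the median of all 9515 detected probes. The medians run from -1.80 with albiflorin 100 to -1.35 with paeonol 100.

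Set in order, the group medians of the difference from vehicle ran from -1.80 to -1.35. The lowest were albiflorin 100 (-1.80) and albiflorin 1 (-1.77). Between -1.67 and -1.63 lay paeoniflorin 1, albiflorin 10, LPS alone (-1.65) and paeonol 10. Then came paeonol 1 (-1.58), paeoniflorin 100 (-1.57), paeoniflorin 10 (-1.46) and paeonol 100 (-1.35). The array medians behind them had SDs of 0.040 to 0.335 over 3 arrays, so that neighbours in this order did not differ beyond their spread. Paeonol 100 had array medians of 13.35, 13.47 and 13.24, all above the highest LPS-alone array, 13.18. It was the highest of the 10 treated groups for 82 members (48.5%), beside 18.7% of detected probes. The next was paeoniflorin 10 for 46 members (27.2%), beside 18.3%. Albiflorin 100 was the lowest for 58 members (34.3%), beside 16.2% of detected probes, and albiflorin 1 for 46 (27.2%), beside 19.3%. Without the second set, the median difference from vehicle of paeonol 100 was -1.40, and the other 9 groups lay between -1.68 and -1.51.

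The comparison of each compound dose with LPS alone asks whether the compound changes the level that LPS leaves. The difference between 2 treated groups is no part of the value that the rule used, but the arrays compared took part, with equal weight, in the mean over 30 arrays that chose the members. Of the 169 members 11, all near the threshold, would leave the list if some single treated array were left out of that mean. As an alternative chosen after seeing the data, the members were chosen anew from the 24 treated arrays not in the comparison. The list then held 165 to 179 probes, 156 to 169 of them shared, and its median difference from LPS alone was 0.33 with paeonol 100, 0.25 with paeoniflorin 10 and between -0.12 and 0.08 at the other doses. Paeonol 100 again had 1 called member. All 9 dose comparisons share the same 3 LPS-alone arrays. Tests were run with limma over 19438 probes in one fit of 33 arrays, with Benjamini-Hochberg adjustment over all probes and calls at an adjusted p below 0.05.

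**Figure D3:**
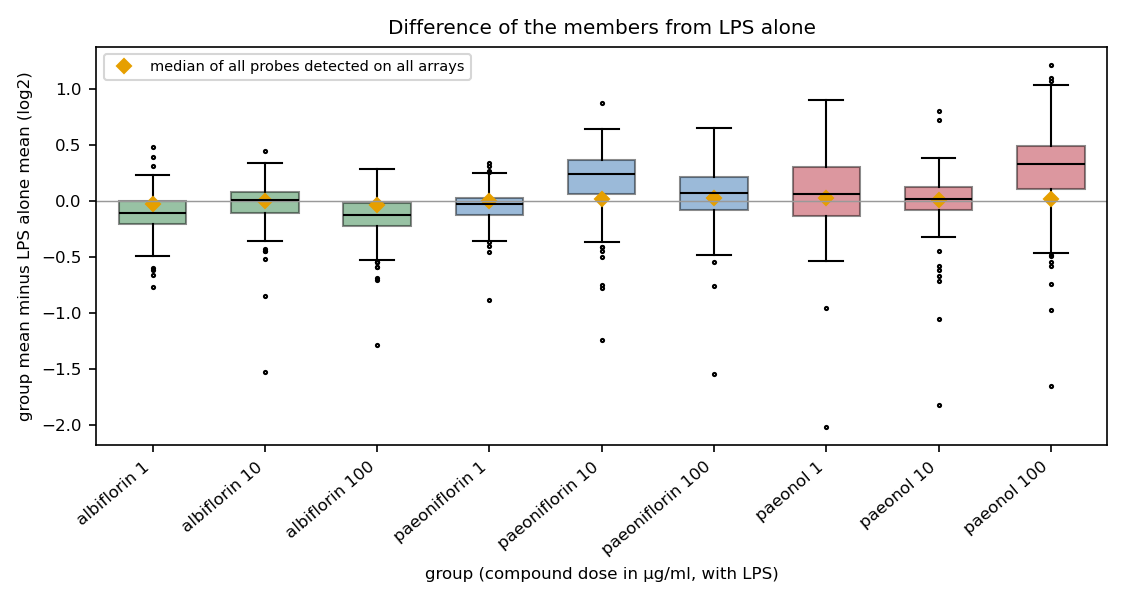
Difference of each of the 169 probes from its mean with LPS alone (y axis, log2) in the 9 compound groups (x axis). Boxes, whiskers and diamonds are as in the plot of differences from vehicle. The medians are 0.33 with paeonol 100, 0.24 with paeoniflorin 10 and between -0.12 and 0.08 in the other 7 groups, and the lowest dot of each paeonol group is probe 618976, whose level follows the array classes.

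Paeonol 100 was the only dose with a called member. With it 139 of 169 members had a mean above that with LPS alone, with a median difference of 0.33 log2 units, beside 52.8% and 0.02 for all detected probes. Limma called 1 member higher and 0 lower, beside 0.036% and 0.108% of all tested probes. At an unadjusted p under 0.05, 35 members were higher and 2 lower, which is 20.7% and 1.18% of the list, beside 4.26% and 4.71% of detected probes. All 3 paeonol 100 arrays lay above all 3 LPS-alone arrays for 51 members (30.2%), beside 9.83% of detected probes, and below for 1 member (0.592%), beside 7.44%. Each paeonol 100 array was also set against the LPS-alone array of the same scan day. On days 1, 2 and 3, 132, 140 and 105 members were higher (78.1%, 82.8% and 62.1%), beside 49.2%, 54.8% and 55.6% of detected probes. The median differences were 0.22, 0.62 and 0.12. The day 2 LPS-alone array belongs to the second set. Without that set 131 members were higher, with a median of 0.23, beside 50.5% of detected probes. Paeonol 100 replicates 1 and 3 are class C arrays, and class C has no LPS-alone array. With the classes as a block the median was 0.29, with classes and second set 0.21, and with replicate number and classes 0.415. Class A has 1 array of each group, paeonol 100 replicate 2 and LPS replicate 1, from different scan days. In that pair 128 members were higher, with a median of 0.31. The share over all detected probes was not computed for this pair of single arrays, so that the count has nothing to be set beside. This paeonol 100 array had the highest member median of all treated arrays, 13.47.

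The called member was probe 393671 (mCG145565). It read 14.37, 14.48 and 14.40 log2 units in vehicle cells, 12.84, 12.66 and 12.52 with LPS alone and 13.93, 13.86 and 13.25 with paeonol 100. The paeonol 100 arrays lay above every LPS-alone array and below every vehicle array. The difference from LPS alone was 1.00 ± 0.191 (SE, n = 3 per group, 95% interval 0.61 to 1.40, limma adjusted p = 0.0248). With paeonol 1 it read 13.30, 13.23 and 13.12, and with paeonol 10 it read 13.35, 12.97 and 12.87, again above all LPS-alone arrays. Those differences, 0.54 ± 0.191 and 0.39 ± 0.191, were not called (limma adjusted p = 0.745 and 1). At paeonol 100 the call was lost with median normalization (limma adjusted p = 0.167), with no detection filter (0.0621) and in a fit of only these groups (0.496). It was also lost with the array classes as a block (limma adjusted p = 0.0889), with classes and second set (0.0575), and without LPS replicate 2 (0.132), LPS replicate 3 (0.244), paeonol 100 replicate 1 (0.210) or paeonol 100 replicate 2 (0.190). The difference stayed between 0.88 and 1.22 under all alternatives run. With the replicate number as a block, 2 members were called higher. Adjusted over the 9 dose comparisons together, no member was called, and the smallest adjusted p was 0.188.

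**Figure D4:**
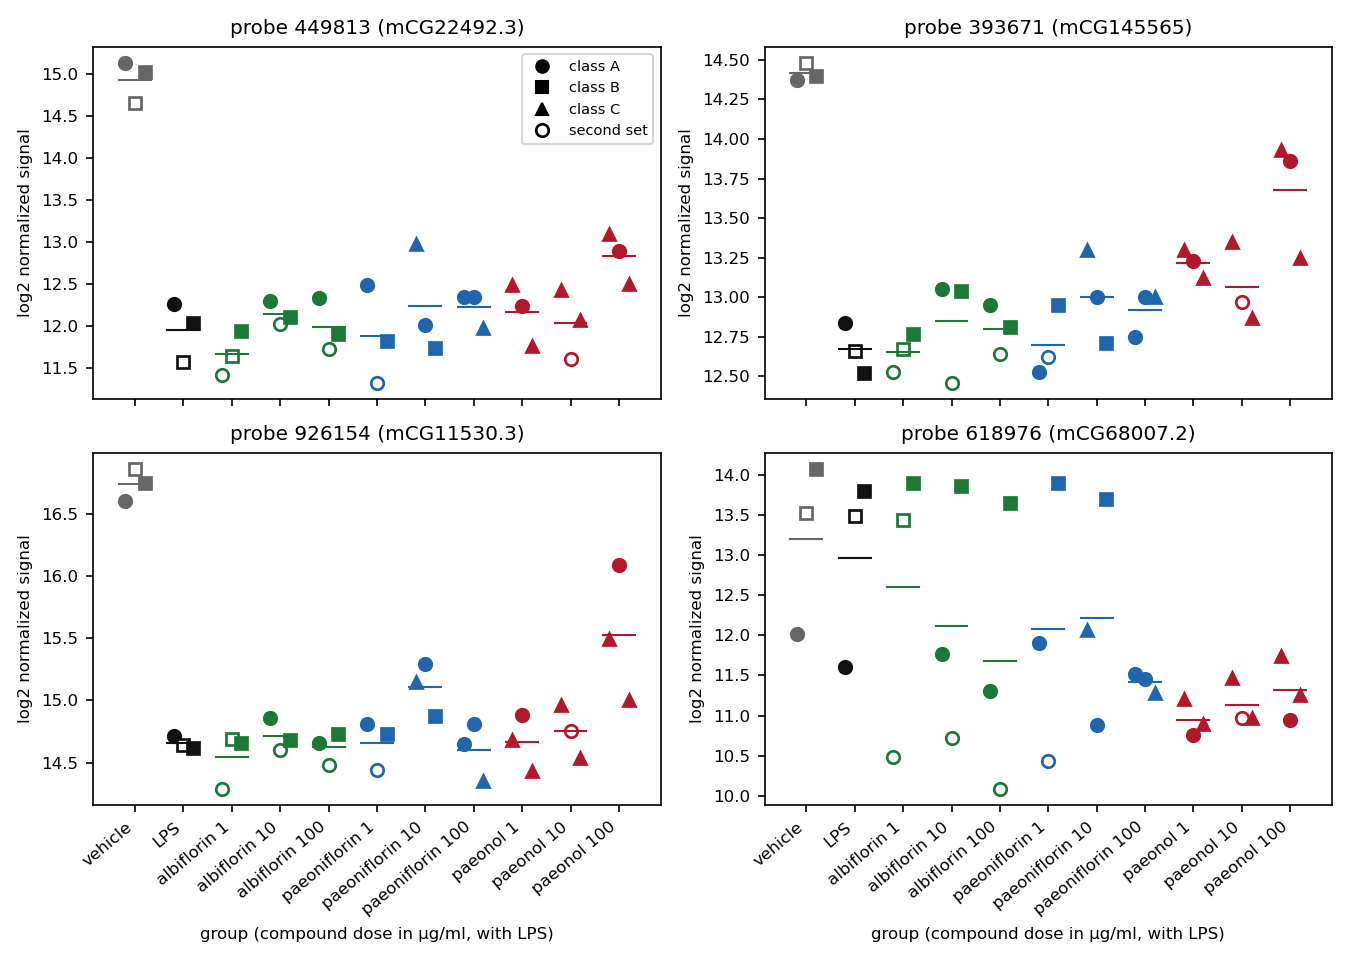
Log2 normalized signal (y axes) of 4 members on each array by group (x axes), with lines at the means of 3 arrays, symbols for array classes and open symbols for the second set. Probe 449813 has the largest fall, probe 393671 is the member called with paeonol 100 (12.52 to 12.84 with LPS alone, 13.25 to 13.93 with paeonol 100), probe 926154 has the smallest p in the paeonol dose trend, and probe 618976 is high on the class B arrays only.

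At the other doses limma called 0 members in either direction, beside 0% of the 19438 probes. For albiflorin the medians over the members were -0.10, 0.02 and -0.12 at 1, 10 and 100 µg/ml. Of 169 members 39, 88 and 38 were higher (23.1%, 52.1% and 22.5%), beside 43.9%, 51% and 40.4% of detected probes. The 4 lowest albiflorin arrays are second-set arrays. Outside that set, with 1, 2 and 2 albiflorin arrays, the medians were 0.07, 0.06 and -0.05. There 107, 118 and 58 members were higher, beside 54.3%, 55.8% and 44.6% of detected probes. The direction at 1 µg/ml thus turned, both for the members and for the share of detected probes. At an unadjusted p under 0.05, 0, 0 and 0 members were higher and 0, 1 and 1 lower, beside 0.105%, 0.189% and 0.231% higher and 0.0736%, 0.2% and 0.431% lower of detected probes. The one lower with albiflorin 10 was probe 611175 (mCG20050.1), whose mean rests on 1 array. It read 16.51, 12.83 and 16.46 with albiflorin 10 and 16.60, 16.89 and 16.90 with LPS alone (difference -1.53 ± 0.539 SE, limma adjusted p = 1). That low array also brought it into the list, since without it the rule value would be -1.15, short of the threshold. Probe 752979 (mCG128279.1) had the smallest p with albiflorin 100, with a difference of -0.54 ± 0.255 (limma adjusted p = 1). The 95% interval of the difference lay within 2-fold of LPS alone for 81.1%, 87.6% and 81.7% of the members at the 3 doses.

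Paeoniflorin 10 came nearest to paeonol 100. Its median difference from LPS alone was 0.24, with 137 members higher (81.1%, beside 53.8% of detected probes). At an unadjusted p under 0.05, 15 were higher and 3 lower (8.88% and 1.78%, beside 1.9% and 5.11% of detected probes). All 3 arrays lay above the LPS-alone arrays for 11 members (6.51%), beside 2.79%. Its smallest p was that of probe 484926 (mCG129787.1), at 11.75, 11.56 and 11.73 with LPS alone and 12.52, 12.63 and 11.80 with paeoniflorin 10. The difference of 0.63 ± 0.216 was not called (limma adjusted p = 0.629). The median was 0.17 without paeoniflorin 10 replicate 1, the array with the fewest detected probes, 0.16 without LPS replicate 2 and 0.12 with the second set as a term. It was 0.13 with median normalization and 0.345 without paeoniflorin 10 replicate 3, so that its size depends on the processing and on single arrays. Outside the second set it was 0.16, with 122 members higher, beside 50.3% of detected probes. Paeoniflorin 1 and 100 had medians of -0.02 and 0.08. Outside the second set both were slightly below 0, at -0.02 and -0.01, so that paeoniflorin 100 changed sign. At these doses there were 0 members at an unadjusted p under 0.05 in either direction, beside 0.0736% and 0.42% higher and 0.0631% and 0.715% lower of detected probes.

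At the lower paeonol doses the members lay close to their level with LPS alone. The median differences from LPS alone were 0.07 and 0.02 at 1 and 10 µg/ml, and 0.00 and 0.02 outside the second set. The paeonol 10 means include replicate 3, the array with the most flagged gene probes. At an unadjusted p under 0.05, 9 members were higher and 4 lower with paeonol 1, beside 4.63% and 3.41% of detected probes, and 1 was higher and 0 lower with paeonol 10, beside 0.589% and 0.799%. Probe 774391 (AK047757.1) had the smallest p with paeonol 10. It read 13.25, 13.33 and 13.40 with LPS alone and 13.95, 14.23 and 14.22 with paeonol 10, without overlap, and 14.02, 14.16 and 13.53 with paeonol 100. The difference at paeonol 10 was 0.81 ± 0.221 (limma adjusted p = 1). Probe 735885 (mCG20862.2) had the smallest p with paeonol 1, with a difference of 0.54 ± 0.179 (limma adjusted p = 0.744).

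Averaged over its 3 doses, no compound had a called member. The median member difference from LPS alone was -0.08 for albiflorin, 0.11 for paeoniflorin and 0.14 for paeonol, each with a median SE of 0.211 per probe. Limma called 0 members, beside 0% of probes in all but one case, paeoniflorin lower, at 0.00514%. At an unadjusted p under 0.05, 13 members were higher and 3 lower for paeonol, beside 3.22% and 3.29% of detected probes, 1 was higher and 0 lower for paeoniflorin, beside 0.315% and 0.41%, and 0 were either for albiflorin, beside 0.042% and 0.0841%. Probe 393671 again had the smallest p for paeonol, with a mean difference of 0.64 ± 0.156 (limma adjusted p = 0.391).

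The dose trend is a slope of log2 signal on log10 dose, fitted to the 9 arrays that received a compound. It is given per 10-fold dose and uses neither LPS-alone nor vehicle arrays. Since the 3 doses are evenly spaced on this scale, the mean at 10 µg/ml carries no weight in the slope. For paeonol the median slope of the members was 0.10, with 133 of 169 above 0, beside -0.01 and 47.2% for detected probes. Limma called 0 members, beside 0.0154% of probes rising and 0.00514% falling. At an unadjusted p under 0.05, 27 members had a slope above 0 and 2 a slope below 0 (16% and 1.18%, beside 3.43% and 4.59% of detected probes). The means were highest at 100 µg/ml for 125 members, beside 38.6% of detected probes, and rose at each step for 48, beside 21.4%.

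The smallest p of the paeonol trend was that of probe 926154 (mCG11530.3). It read 14.68, 14.88 and 14.43 at 1 µg/ml, 14.96, 14.75 and 14.54 at 10 and 15.49, 16.09 and 15 at 100, against 14.71, 14.64 and 14.62 with LPS alone and 16.60, 16.86 and 16.75 in vehicle cells. The arrays at 100 µg/ml lay above all at the lower doses. The slope was 0.43 ± 0.101 SE (limma adjusted p = 0.216). Without paeonol 100 replicate 3, its lowest array, it was 0.56 (limma adjusted p = 0.017), and without replicate 2, its highest, it was 0.29 (0.676). Over the other alternatives the adjusted p ran from 0.0313 to 0.614. Probe 906981 (mCG1916) had a slope of 0.31 ± 0.0826 (limma adjusted p = 0.334). It read 15.66, 15.78 and 15.55 at 1 µg/ml and 16.45, 16.36 and 16.03 at 100.

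For albiflorin and paeoniflorin the members had no called slope, beside 0% of probes, and 0 at an unadjusted p under 0.05 in either direction, beside 1.1% and 0.273% rising and 1.14% and 0.263% falling of detected probes. The median slopes were -0.01 and 0.06. The smallest p among the members were those of probe 895153 (mCG50406.1) for albiflorin, with a slope of 0.19 ± 0.0915, and probe 343786 (mCG141836) for paeoniflorin, with a slope of 0.22 ± 0.129 (limma adjusted p = 1 for both). Probe 715000, next to the largest in its fall after LPS, had a slope of 0.17 ± 0.0925 with albiflorin.

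The compounds were also set against each other at matched doses, in 9 pairs. The isomers albiflorin and paeoniflorin did not differ in any member at the threshold, beside 0% of probes called. The median of albiflorin minus paeoniflorin was -0.06, -0.22 and -0.20 at 1, 10 and 100 µg/ml. Albiflorin 10 and 100 each hold 1 array of the second set and paeoniflorin 10 and 100 none. Outside that set the medians were 0.06, -0.06 and -0.05, so that at 1 µg/ml the direction turned and at the higher doses the difference was small. At an unadjusted p under 0.05, 0, 0 and 0 members were higher with albiflorin and 0, 16 and 3 lower, beside 0.242%, 5% and 0.715% higher and 0.2%, 2.01% and 1.77% lower of detected probes. The 16 at 10 µg/ml include probe 513334 (mCG4361.1), with a difference of -0.39 ± 0.147 (limma adjusted p = 0.604), and probe 816659 (mCG64772.1), with -0.71 ± 0.269 (95% interval -1.26 to -0.15, limma adjusted p = 0.604). The 95% interval lay within 2-fold for 83.4%, 70.4% and 74.6% of the members at the 3 doses.

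The difference between paeonol and albiflorin was the widest at 100 µg/ml. Both pairs with paeonol at this dose use the same paeonol 100 arrays as the comparison with LPS alone and the paeonol trend. These results are therefore not independent of one another. The median of albiflorin minus paeonol was -0.44, with 147 of 169 members lower with albiflorin and 22 higher (13%, beside 43.4% of detected probes). At an unadjusted p under 0.05, 65 were lower and 0 higher (38.5% and 0%, beside 7.17% and 3.76% of detected probes). Limma called 0 members, beside 0.0206% of probes higher and 0.0103% lower, and 2 members lower with the replicate number as a block. These were probe 393671, with a difference of -0.88 ± 0.191, and probe 926154, with -0.90 ± 0.203 (95% intervals -1.27 to -0.48 and -1.32 to -0.48, limma adjusted p = 0.156 and 0.175 without the block and 0.0462 for both with it). Under the other alternatives these adjusted p ran from 0.0388 to 0.677 and from 0.0163 to 0.677, and with 1 array left out from 0.0165 to 0.834 and from 0.0127 to 0.815. Probe 393671 read 12.95, 12.64 and 12.81 with albiflorin 100, and probe 926154 read 14.66, 14.48 and 14.73, all below the paeonol 100 arrays. The median was -0.30 without albiflorin 100 replicate 2, an array of the second set, and -0.34 with that set as a term. Paeonol 100 replicates 1 and 3 are class C arrays, and albiflorin 100 has no array of that class. The median was -0.395 with the classes as a block, -0.307 with classes and second set, and -0.514 with replicate number and classes.

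Paeoniflorin minus paeonol at 100 µg/ml had a median of -0.22. Limma called 0 members, beside 0.00514% of probes higher and 0.0103% lower, and at an unadjusted p under 0.05, 1 member was higher and 19 were lower (0.592% and 11.2%, beside 2.85% and 1.98% of detected probes). Neither group holds an array of the second set. Paeonol 100 replicates 1 and 3 and paeoniflorin 100 replicate 3 are class C arrays. The median was -0.21 with the classes as a block, -0.22 with classes and second set, and -0.26 with replicate number and classes. Probe 926154 read 14.65, 14.81 and 14.35 with paeoniflorin 100, below all paeonol 100 arrays, with a difference of -0.92 ± 0.203 (95% interval -1.34 to -0.50, limma adjusted p = 0.180). Over the alternatives that p ran from 0.015, with classes and second set as terms, to 0.656, in a fit of only these groups. With 1 array left out it ran from 0.0125, without paeonol 100 replicate 3, to 0.901, without paeoniflorin 100 replicate 3, and the difference was -0.64 without paeonol 100 replicate 2. Probe 393671 differed by -0.76 ± 0.191 (limma adjusted p = 0.344).

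At 1 µg/ml the median was -0.19 for albiflorin minus paeonol and -0.14 for paeoniflorin minus paeonol. Of the arrays compared, 2 of albiflorin 1 and 1 of paeoniflorin 1 are in the second set. Outside it the medians were 0.05 and 0.01, so that neither direction held. Limma called 0 members in both, beside 0.0103% of probes lower for albiflorin and otherwise 0%, and at an unadjusted p under 0.05, 4 and 1 were higher and 23 and 7 lower, beside 6% and 2.34% higher and 9.14% and 3.08% lower of detected probes. Probe 479319 (mCG2673.2) had the smallest p in both. It read 15.87, 15.69 and 15.32 with paeonol 1, 14.71, 14.80 and 15.20 with albiflorin 1 and 15.27, 14.80 and 15.14 with paeoniflorin 1. The paeonol arrays lay above the others, by 0.72 ± 0.201 and 0.56 ± 0.201 (limma adjusted p = 0.290 and 0.960).

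At 10 µg/ml albiflorin minus paeonol had a median of -0.03, with 0 members higher and 2 lower at an unadjusted p under 0.05, beside 0.284% and 0.473%. Outside the second set that median was 0.06. Paeoniflorin minus paeonol had a median of 0.20, and 0.14 outside the set, opposite in sign to that at 100 µg/ml, with 8 higher and 0 lower, beside 1.61% and 4.08%. Limma called 0 members in either, beside 0% of probes. The smallest p of the second pair was that of probe 415592 (mCG62490.1), which was 0.68 ± 0.197 higher with paeoniflorin 10 (limma adjusted p = 0.655). Adjusted over all 9 matched pairs together, no member was called, and the smallest adjusted p was 0.437.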

How the data were processed

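RNA of 33 RAW264.7 cultures was read on one-colour arrays. Per the file headers, the deposited scanner tables give for each probe a signal, which is a linear intensity, a score of signal over noise, and a flag code for quality. The authors' deposited table of log2 values equals the log2 scanner signal for vehicle replicate 1, to within 2.24e-06. How its other columns were normalized is not given in the sources used here, and it was used for the rule and as an alternative.

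Spots flagged above 5000 were set missing (0 of 169 members were affected). The signals were quantile normalized between arrays, floored at the 5th percentile (165.7) and taken to log2. The 19438 probes with a signal over noise of at least 3 on 3 or more arrays entered one model of 11 group means (limma 3.58.1, R 4.3.3; lmFit and eBayes, 2-sided). Precision is limited by the number of arrays. The script was tested on simulated data.

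Members and lists were chosen with earlier results of these data known. By rule the text gives the 4 largest falls, probes beside the threshold, the brightest and dimmest members, those with extreme SD over treated groups, and per comparison the called members or those with the smallest p. Further probes are named where they disagree with another probe or with an array class, and were chosen after their values were seen. Scan day and replicate number coincide on 33 of 33 arrays, per the file headers, so the numbers pair the arrays. The correlation of their deviations with the LPS-alone array exceeded 0.1 for every pair in 6 of 10 groups. It did not for paeoniflorin 100 and for every paeonol dose. For paeonol 100 it was -0.001, 0.016 and 0.161, so that pairing by number had little basis in that comparison. Array classes were found from probes outside the list that split the arrays with a gap of at least 2.5 SD, in sets supported by 5 or more probes, after seeing the data.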

Additional observations from a re-analysis of the deposited data

How the results depend on the processing

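Under median normalization, quantile normalized values or LPS alone in place of all treated arrays, the rule gave 232, 224 and 202 members, sharing 169, 169 and 158 with the list. No difference of a named probe changed sign under any alternative. Of 24 member medians 14 did under at least 1, all of them 0.19 or smaller in size: albiflorin against LPS at every dose (to 0.01, -0.20 and 0.02 at 1, 10 and 100 µg/ml), paeoniflorin 1 (to 0.07) and 100 (to -0.06), paeonol 1 (to -0.04) and 10 (to -0.10), the paeoniflorin mean (to -0.01), the albiflorin and paeoniflorin trends (to 0.06 and -0.01), and the matched pairs albiflorin and paeoniflorin at 1 (to 0.04), albiflorin and paeonol at 1 (to 0.08) and 10 (to 0.13), and paeoniflorin and paeonol at 1 (to 0.01). In 19 of 24 comparisons limma called 0 members under every alternative. For paeonol 100 against LPS, 0 members were called with median normalization, with no detection filter and in a fit of only the groups compared, 2 with the replicate block, and 0 to 2 with one array left out (0 without LPS replicate 2 or 3 or paeonol 100 replicate 1 or 2, and 2 without paeonol 100 replicate 3). The remaining alternatives were chosen after seeing the data. That count was 2 with the second set as a block alone or with the classes, 7 with the replicate block and the classes, and 3 with the replicate block and a prior variance that follows signal. For the paeonol trend the corresponding counts were 3 with classes and second set, 3 with replicate block and classes, 2 with replicate block and variance trend, and 0 to 1 with one array left out. For albiflorin against paeonol at 100 µg/ml they were 2 with the replicate block, 1 with the classes, 1 with the second set, 2 with both, 6 with replicate block and classes, 3 with replicate block and variance trend, and 0 to 2 with one array left out. At 1 µg/ml the replicate block with the variance trend gave 4. For paeoniflorin against paeonol at 100 µg/ml they were 1 with the classes, 4 with classes and second set, 1 with replicate block and variance trend, 1 with replicate block and classes, and 0 to 1 with one array left out. The gains with one array left out all came without paeonol 100 replicate 3. The cause was not tested. The replicate block changed no other member count by itself. Over all tested probes the paeonol 100 comparison had 28 calls, and 94 with the replicate block. Of 498 medians under alternatives, 482 moved by less than 1 SD of the array medians. Several alternatives cannot move a median, among them the replicate block, no detection filter and a fit of only the groups compared. The count of 482 includes these and so overstates how far the medians were tested. A separate array batch from the headers was not run, since they give only the scan day, which is the replicate number.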
